A study of Homo sapiens with 12 samples.

Results

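The interleukin-10 and interleukin-6 type cytokine axis was followed here in tumor-associated macrophages (TAMs) through 10 genes: the ligands IL6, LIF, OSM and IL10, the receptor chains IL6R, IL6ST, IL10RA and IL10RB, the transcription factor STAT3 and its feedback inhibitor SOCS3. They were taken by gene name from a deposited table of 58735 genes, each name matched 1 row, and all 10 passed the filter on low counts that left 16046 genes for testing. The TAMs were made by treating THP-1, a human monocytic leukemia line, with the phorbol ester PMA, and were cocultured across a porous membrane with AsPC-1 cells, a human pancreatic cancer line. There were 4 groups of 3 libraries. The AsPC-1 cells carried an empty lentiviral vector in the control group, and overexpressed the metalloproteinase MMP28 from a lentiviral vector in the other 3 groups, which received no antibody (OE-MMP28), a neutralizing antibody against IL-8 (anti-IL-8) or one against VEGFA (anti-VEGFA). The lentiviral lines were selected with puromycin, and the labels name no group with a control antibody. Vector cells were the partner in all control libraries and overexpressing cells in all others, so MMP28 and any other difference between those cells or their handling cannot be told apart in comparisons with control. The labels do not say that the libraries of a group came from separate cultures, so p-values measure the spread between these libraries, which may be technical.

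Most cytokines of the interleukin-6 family signal through IL6ST (gp130), a shared chain that pairs with a ligand-specific chain. The latter is IL6R for IL-6, LIFR for LIF, and OSMR or LIFR for oncostatin M, the product of OSM. Interleukin-10, a cytokine that restrains macrophage inflammatory output, binds IL10RA and recruits IL10RB, a chain it shares with interleukin-22, interleukin-26 and type III interferons. Both families act through JAK kinases that phosphorylate STAT3. SOCS3 is induced by STAT3 and blocks signalling at gp130, while leaving the interleukin-10 receptor largely unaffected.

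In the TAMs, LIF carried the clearest difference: it was lower than control in all 3 groups cocultured with MMP28-overexpressing cells. IL6, IL6R and STAT3, which were among the most abundant of the 10, had no adjusted p under 0.05 in any of the 6 comparisons among the groups. IL10 was called lower than control in the anti-VEGFA group and IL6ST in the anti-IL-8 group, and no gene of the 10 was called higher. No gene of the 10 passed the adjusted threshold between either antibody group and OE-MMP28.

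Of the 10 genes, 8 had an entry in the RefSeq promoter table for GRCh38.p14, with 11 start sites among them; LIF and OSM had none. The stretches shown are the longest runs free of GENCODE 29 exons within the 250 bases before a start site. IL10 and IL6ST are shown because they were called lower in 1 group each, and IL6 because its level per length was the highest of the 10 and its window held a motif match, printed in capitals. The IL10 stretch is chr1:206772495-206772744, minus strand, the IL6ST stretch is chr5:55994994-55995166, minus strand, and the IL6 stretch is chr7:22726950-22727146, plus strand, each read 5′ to 3′.
IL10: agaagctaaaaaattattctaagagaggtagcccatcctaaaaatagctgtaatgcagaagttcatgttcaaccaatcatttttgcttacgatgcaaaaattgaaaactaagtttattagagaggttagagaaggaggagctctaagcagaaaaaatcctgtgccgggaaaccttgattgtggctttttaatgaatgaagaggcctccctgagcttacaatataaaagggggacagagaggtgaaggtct
IL6ST: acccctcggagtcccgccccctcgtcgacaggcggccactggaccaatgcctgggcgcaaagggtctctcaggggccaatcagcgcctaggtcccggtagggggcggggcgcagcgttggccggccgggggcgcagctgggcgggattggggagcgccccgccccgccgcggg
IL6: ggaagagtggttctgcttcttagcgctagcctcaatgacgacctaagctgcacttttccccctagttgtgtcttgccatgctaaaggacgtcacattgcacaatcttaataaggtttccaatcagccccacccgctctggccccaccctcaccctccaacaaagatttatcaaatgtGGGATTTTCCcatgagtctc

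A search of both strands of the 11 windows for the STAT letters TTCNNNGAA gave 0 matches, against 6.57% of the 35116 promoters of the table. The interferon response element, read as TTTC, any 2 bases and TTTC, also gave 0, against 3.02%. The AP-1 letters TGANTCA were in 2 windows, of IL10RA and of a second IL10 start site, against 6.57%. The NF-kB motif, read as GGGA, any base, TT, any base and CC, was in 1, the IL6 window, 73 bases before the start site, against 1.26%. No matches overlapped. The windows follow the start sites of the promoter table, which can differ from the annotated gene starts. SOCS3 is annotated to start at chr17:78360077, minus strand. Its windows are chr17:78360926-78361175 and chr17:78359668-78359917. The IL10RA window (chr11:117989695-117989944) and the IL6 window lie inside the annotated genes, which start at chr11:117986348 and chr7:22725884. The bases just before these annotated starts were not searched. The IL10 window with the AP-1 match (chr1:206770604-206770853) also lies inside its annotated gene, chr1:206767602-206772494. So does another IL10 window, chr1:206771190-206771439. These are matches of letters, and no factor binding was measured.

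Library totals ran from 15852346 to 18701195 counts, at which 3 counts are 0.160 to 0.189 CPM (counts scaled to library size). Mitochondrial genes took 6.92% to 17.8% of the counts, the highest share being in anti-VEGFA replicate 2; by group the control libraries had 7.44% to 9.95%, OE-MMP28 had 8.41% to 12.3%, the anti-IL-8 libraries had 9.01% to 11.3%, and anti-VEGFA held both extremes. MMP28 had 0 counts in all 12 libraries; the overexpressing AsPC-1 cells were in the other chamber. The 9 macrophage markers summed to 2041 to 2316 CPM in control, 2198 to 3499 in OE-MMP28, 2892 to 3586 with anti-IL-8 and 2791 to 2966 in the anti-VEGFA group, though CD68 had 0 to 5 counts and 85.8% of its exon bases lie in other annotated genes. The 8 AsPC-1 epithelial markers summed to 4.39 to 5.09 CPM in control, 2.11 to 3.18 in OE-MMP28, 3.44 to 4.63 with anti-IL-8 and 3.63 to 4.22 in the anti-VEGFA group, with EPCAM at 0 in all 12 libraries. In bulk RNA, fewer cells making a transcript and less of it per cell cannot be told apart.

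Levels are compared between genes only per length, as the deposited FPKM (fragments per kilobase of gene length, scaled to library size). Over all 12 libraries, IL6 had the highest mean level, 37.9 FPKM ± 3.40 (SD, n = 12). IL6R, the chain that binds IL-6, followed at 21.9 ± 3.75 and STAT3 at 21.8 ± 2.52. SOCS3 was at 15.0 ± 2.93, IL10RA at 7.40 ± 1.48, LIF at 7.25 ± 4.21 and IL6ST at 4.00 ± 0.539. IL10 was at 1.39 ± 0.395, OSM at 0.582 ± 0.293 and IL10RB at 0.476 ± 0.104. Only the steps from IL6 to IL6R and from IL6ST to IL10 separated neighbouring genes without overlap of their 12 libraries, so the order within the other neighbours is not fixed by these data.

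The wider families show which receptors these levels stood beside. LIFR, the chain that LIF needs, had 1 to 10 counts in a library and a mean of 0.0254 FPKM, and CNTFR, which binds CNTF, had at most 4 counts, whereas OSMR was at 3.47 FPKM and IL11RA at 2.88. CNTFR was at 0 counts in 5 libraries, which allows up to 0.170 to 0.180 CPM in these. The 2 most abundant transcripts of both families were outside the 10 genes: IL24, an interleukin-10 family cytokine, at 114 FPKM, and EBI3, a subunit of interleukin-27 and interleukin-35, at 76.3 FPKM. IL27, the gene of the partner subunit in interleukin-27, had 1 to 17 counts in a library and a mean of 0.259 FPKM. IL20RA and IL22RA1, chains through which interleukin-24 or interleukin-22 act, had at most 1 count in any library, IL20RB was at 0.906 FPKM, and IL26, IFNL2 and IFNL3 had 0 counts in all 12 libraries.

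The ligands were compared first, in CPM scaled by TMM (edgeR's trimmed mean of M values). LIF, a cytokine of the interleukin-6 family known for keeping stem cells undifferentiated (ENSG00000128342, GRCh38 chr22:30240447-30246851, minus strand), was at 54.7, 40.8 and 64.4 CPM in the control libraries. It was at 23.4, 14.7 and 16.9 CPM in the OE-MMP28 libraries and at 12.1, 17.9 and 21.5 with anti-IL-8. With anti-VEGFA it was at 29.7, 15.1 and 38.5 CPM. All 3 control libraries were above all 9 others, and the anti-VEGFA libraries spanned the range from the OE-MMP28 level to just under the lowest control library.

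Against control, LIF fell in the OE-MMP28 group to 0.344 times, a log2 change of -1.54 (SE 0.28, n = 3 against 3; edgeR quasi-likelihood test, Benjamini-Hochberg adjusted p = 0.00245). It was the only gene of the 10 past the adjusted threshold, 1 lower and 0 higher, where 3.16% of all genes tested passed, 2.64% lower and 0.523% higher. Among the 16046 genes it held rank 192 by p-value and rank 156 by the size of the fall. The call held without each of the 12 libraries in turn, with changes from -1.75 to -1.38 and an adjusted p of at most 0.0189. With the mitochondrial share as a covariate, an alternative added after the data were seen, the change was -1.33 (adjusted p = 9.23e-04).

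LIF also fell against control with anti-IL-8, to 0.322 times, or -1.64 on the log2 scale (SE 0.28, edgeR adjusted p = 8.96e-04), and by -1.53 with the mitochondrial share as a covariate (adjusted p = 1.00e-04). With anti-VEGFA it fell to 0.522 times, or -0.94 (SE 0.27, edgeR adjusted p = 0.0337). That last call was lost without control replicate 1 (adjusted p = 0.0956), control replicate 3 (0.136), the first anti-VEGFA library (0.0503) or the second (0.0968, with a change of -0.63). It was also lost with DESeq2 (0.0697), with limma on log2 FPKM (0.0655 and 0.0842) and with the mitochondrial share as a covariate (0.0600, with a change of -0.69). The 3 comparisons with control share its 3 libraries.

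LIF differed from OE-MMP28 by -0.10 with anti-IL-8 (95% interval -0.69 to 0.49, edgeR adjusted p = 0.839). With anti-VEGFA the difference was 0.60 (0.02 to 1.18), with an unadjusted p of 0.0435 and an adjusted p of 0.251. Anti-VEGFA and anti-IL-8 differed in LIF by 0.70 (0.11 to 1.28, adjusted p = 0.258). Neither antibody gave a called change of LIF against OE-MMP28 in this fit, and these intervals leave room for one. With no filter on low counts LIF was called higher with anti-VEGFA than in OE-MMP28 (0.58, adjusted p = 0.0362) and than with anti-IL-8 (0.69, adjusted p = 0.00702). That fit gave LIF far smaller p-values than the main fit at nearly equal changes. For OE-MMP28 against control its edgeR adjusted p was 2.59e-18, beside 0.00245. Calls made only by that fit are therefore weak evidence. Leaving out 1 library moved the anti-VEGFA difference from OE-MMP28 to between 0.28 (without anti-VEGFA replicate 3) and 0.90 (without anti-VEGFA replicate 2), and that from anti-IL-8 to between 0.36 and 0.97 (without the same libraries).

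IL6, the prototype ligand of the family, was at 77.8 to 85.1 CPM in control, 76.5 to 94.8 in OE-MMP28, 73.8 to 84.6 with anti-IL-8 and 68.6 to 79.7 in the anti-VEGFA group. The groups overlapped in every comparison, and log2 changes ran from -0.19 to 0.02. The 95% interval for OE-MMP28 against control was -0.24 to 0.27 (edgeR adjusted p = 0.972). Of its exon bases, 20.7% are shared with AC073072.1, a gene on the opposite strand, which had 0 to 8 counts in a library.

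OSM, the gene of oncostatin M, lies 15977 bases from LIF on chromosome 22 and was counted far less often, with 7 to 37 counts in a library. Its levels were 2.18, 1.91 and 1.24 CPM in control and 1.70, 0.702 and 0.812 in OE-MMP28. The anti-IL-8 libraries were at 0.450, 0.890 and 0.779 CPM and the anti-VEGFA libraries at 1.78, 0.508 and 1.97. Only the anti-IL-8 libraries all lay below control, and the other groups overlapped it. The log2 changes against control were -0.71 (SE 0.46, edgeR adjusted p = 0.519) for OE-MMP28, -1.32 (SE 0.49, adjusted p = 0.0596) for anti-IL-8 and -0.31 (SE 0.44, adjusted p = 0.695) for anti-VEGFA. The anti-IL-8 value passed the threshold with DESeq2 (adjusted p = 0.0362), with no filter on low counts (0.0167), in a fit of those 2 groups alone (0.00663), with the mitochondrial share as a covariate (0.0390), and without OE-MMP28 replicate 2 (0.0490) or anti-VEGFA replicate 2 (0.0253).

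IL10 (ENSG00000136634, chr1:206767602-206772494, minus strand) was a low transcript, with 30 to 75 counts in a library. It was at 4.31, 3.87 and 4.44 CPM in control and 3.19, 2.57 and 3.37 in OE-MMP28. The anti-IL-8 libraries were at 2.19, 3.02 and 2.79 CPM, and those of anti-VEGFA at 1.78, 1.90 and 2.99. As for LIF, the 3 control libraries were above all 9 others. The log2 change against control was -0.47 (SE 0.24, edgeR adjusted p = 0.391) for OE-MMP28 and -0.65 (SE 0.24, adjusted p = 0.0620) for anti-IL-8. The anti-IL-8 value passed with at least 10 counts in every library (0.0480), in a fit of those 2 groups alone (0.0212) and with limma on log2(FPKM + 1) (0.0348). With anti-VEGFA IL10 fell to 0.533 times, or -0.91 (SE 0.24, edgeR adjusted p = 0.0243).

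The anti-VEGFA call on IL10 was lost without control replicate 1, 2 or 3 (adjusted p = 0.0760, 0.0622 and 0.0767) and without anti-VEGFA replicate 1 or 2 (0.0703 and 0.0740). Its direction held in each of these, with changes from -0.97 to -0.77. With the mitochondrial share as a covariate the call was kept at -0.86 (adjusted p = 0.0452). Against OE-MMP28, IL10 differed by -0.19 with anti-IL-8 (95% interval -0.71 to 0.33) and by -0.44 with anti-VEGFA (-0.97 to 0.08, edgeR adjusted p = 0.343).

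Of the receptor chains, IL6ST (gp130; ENSG00000134352, chr5:55935095-55994993, minus strand) was the only one with a call. It was at 39.0, 40.0 and 46.4 CPM in control and 37.4, 46.1 and 38.5 in OE-MMP28. Levels were 30.2, 31.8 and 31.1 CPM with anti-IL-8, whereas the anti-VEGFA libraries had 34.9, 38.0 and 37.5. The anti-IL-8 libraries lay below all 9 others.

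IL6ST fell with anti-IL-8 against control to 0.743 times, or -0.43 on the log2 scale (SE 0.13, edgeR adjusted p = 0.0241). The call was lost without control replicate 2 (adjusted p = 0.0608) or 3 (0.122), without anti-IL-8 replicate 1 (0.129) or 3 (0.0905), and with no filter on low counts (0.0544). It was kept with the mitochondrial share as a covariate (-0.45, adjusted p = 0.0141) and without anti-VEGFA replicate 2 (-0.39, 0.0317). Against OE-MMP28 the change was -0.39 (SE 0.13), with an unadjusted p of 0.00594 and an edgeR adjusted p of 0.0712; it passed with DESeq2 (0.0355) and without OE-MMP28 replicate 3 (0.0339), and was -0.29 without OE-MMP28 replicate 2 (0.312). OE-MMP28 itself differed from control by -0.04 (95% interval -0.30 to 0.22).

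IL10RA, the ligand-binding chain for interleukin-10, was at 81.6, 69.6 and 64.0 CPM in control and at 60.5, 45.7 and 45.6 in OE-MMP28, so that the 2 groups did not overlap. It was at 59.4, 49.8 and 62.7 CPM with anti-IL-8 and at 76.3, 45.7 and 66.5 in the anti-VEGFA group. The log2 change for OE-MMP28 was -0.50 (SE 0.17), with an unadjusted p of 0.00992 and an edgeR adjusted p of 0.156. It was -0.34 with the mitochondrial share as a covariate (adjusted p = 0.191), and it passed with no filter on low counts (-0.50, adjusted p = 0.0461). With anti-IL-8 and anti-VEGFA the changes against control were -0.32 and -0.19.

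IL10RB, the shared second chain, had 26 to 59 counts in a library, and group means of 1.82, 2.07, 2.24 and 2.62 CPM in control, OE-MMP28, anti-IL-8 and anti-VEGFA. Its largest log2 difference from control was 0.53 with anti-VEGFA (SE 0.27, edgeR adjusted p = 0.214). Of its exon bases, 38.1% are shared with AP000295.1, a gene on the same strand with 0 to 3 counts in a library, so reads there could not be assigned to either gene and its level is uncertain.

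IL6R varied most within the anti-VEGFA group, at 187, 92.4 and 145.8 CPM, against 150.0, 159.7 and 159.6 in control. The OE-MMP28 libraries were at 154, 139 and 123 CPM and the anti-IL-8 libraries at 132, 118 and 158, and log2 differences between groups ran from -0.20 to 0.06. Anti-VEGFA replicate 2, which had the highest mitochondrial share, was the lowest of its group in 8 of the 10 genes, the exceptions being IL10 and IL6ST. The part of that share in these values was not tested library by library.

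STAT3 was at 176 to 208 CPM in control, 169 to 218 in OE-MMP28, 179 to 221 with anti-IL-8 and 155 to 224 in the anti-VEGFA group. The groups overlapped in all 6 comparisons, and the log2 differences ran from -0.07 to 0.02, each with an SE of 0.15. These are transcript levels, and phosphorylation of STAT3 was not measured.

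SOCS3 was at 44.4, 51.2 and 36.5 CPM in control and 38.0, 27.0 and 40.5 in OE-MMP28. It was at 41.6, 32.3 and 34.9 CPM in the anti-IL-8 libraries and 52.6, 47.3 and 51.4 in the anti-VEGFA libraries. The anti-VEGFA libraries lay above all 6 libraries of OE-MMP28 and anti-IL-8, and overlapped control. How many of all genes separated in this way was not counted. The log2 difference of anti-VEGFA from OE-MMP28 was 0.52 (SE 0.16), with an unadjusted p of 0.00465 and an edgeR adjusted p of 0.122, and from anti-IL-8 it was 0.48 (SE 0.16, adjusted p = 0.197). Without OE-MMP28 replicate 3 the first of these passed the threshold (0.64, adjusted p = 0.0323), and without OE-MMP28 replicate 2 it was 0.36 (adjusted p = 0.397). OE-MMP28 differed from control by -0.33 (95% interval -0.67 to 0.01, adjusted p = 0.371).

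**Figure D1:**
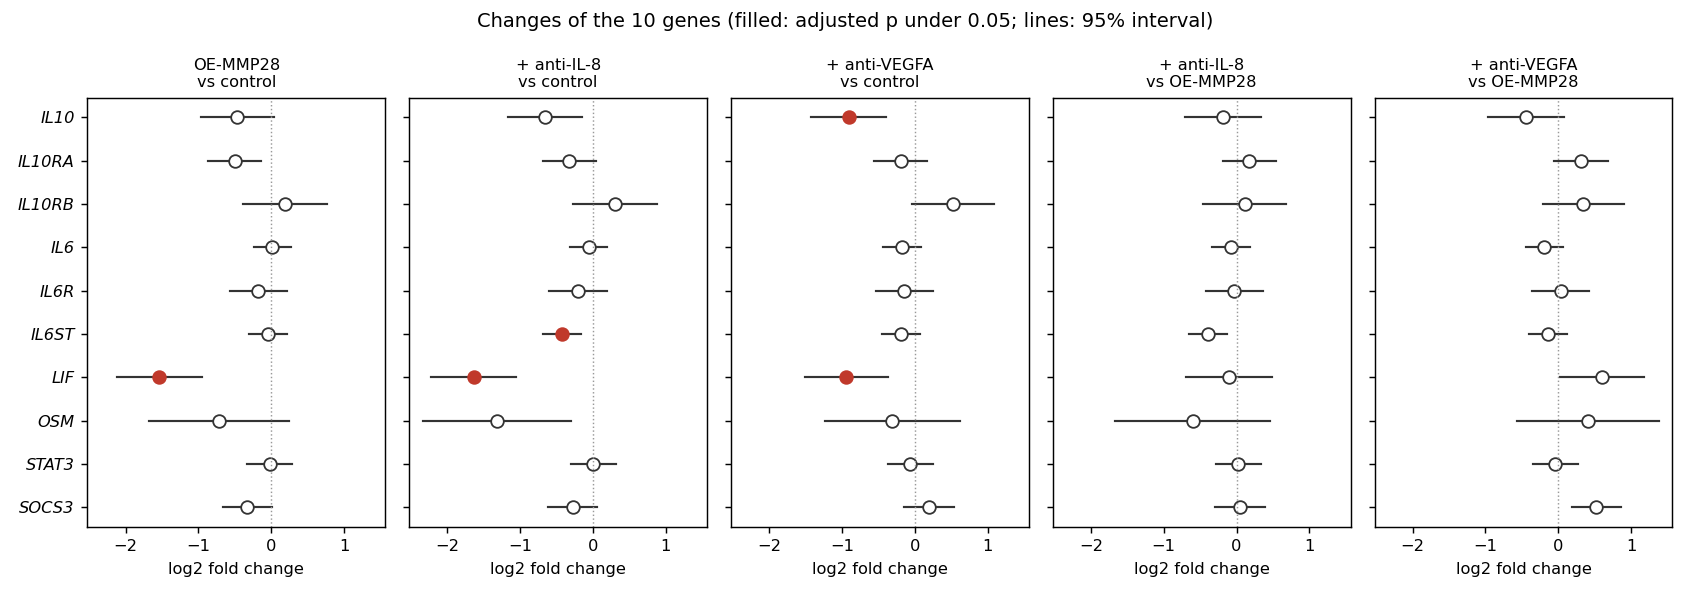
Log2 fold changes of the 10 genes (rows) in 5 comparisons (panels), with 95% intervals as lines; filled points have an edgeR adjusted p under 0.05. LIF is filled in the 3 comparisons with control, IL6ST in that of anti-IL-8 and IL10 in that of anti-VEGFA, and the 2 comparisons with OE-MMP28 hold no filled point.

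Over the 10 genes, the anti-IL-8 group had 2 lower than control and 0 higher at the adjusted threshold, where 20.7% of all genes tested passed, 10.9% lower and 9.77% higher. The anti-VEGFA group had 2 lower and 0 higher, where 11.0% passed, 5.37% lower and 5.6% higher. At an unadjusted p under 0.05, 2 of the 10 passed in OE-MMP28, 4 in the anti-IL-8 group and 2 in the anti-VEGFA group, all lower than control, where 14.5%, 35.9% and 27.0% of all genes passed. Median log2 changes of the 10 genes against control were -0.25 for OE-MMP28, -0.30 for anti-IL-8 and -0.18 for anti-VEGFA, beside 0.02, -0.02 and 0.0014 over all genes. The libraries lay wholly below control for 3 of the 10 genes in OE-MMP28 (LIF, IL10 and IL10RA), where 11.6% of all genes did. They did so for 5 with anti-IL-8 (LIF, IL10, IL10RA, IL6ST and OSM), where 24.4% did, and for 3 with anti-VEGFA (LIF, IL10 and IL6ST), where 17.4% did. Wholly above control lay 1 gene with anti-IL-8 (IL10RB), and 0 with OE-MMP28 or anti-VEGFA. The share of all genes wholly above control was not counted. Nor was it counted for separations of 1 group from several groups at once.

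Against OE-MMP28, anti-IL-8 gave 0 calls among the 10 genes by edgeR's test, where 0.0% of all genes passed. That share moved with the libraries used and the fit: 1166 genes passed when anti-VEGFA replicate 2 was dropped, 4125 when OE-MMP28 replicate 3 was, and 795 with the replicate number as a block. At an unadjusted p under 0.05 it gave 1, lower, where 29.3% of all genes passed, and DESeq2 gave 1, limma-voom 0 and limma on log2 FPKM 0. Anti-VEGFA gave 0 by edgeR, where 0.343% of all genes passed, 55 genes, against 1402 without OE-MMP28 replicate 3 and 8 without OE-MMP28 replicate 2. At an unadjusted p under 0.05 it gave 2, both higher, where 18.8% passed, and DESeq2, limma-voom and limma on log2 FPKM gave 0. Between the antibodies edgeR gave 0, where 0.199% of all genes passed, 32 genes, against 3 without anti-IL-8 replicate 1 and 112 without OE-MMP28 replicate 2. It gave 2 at an unadjusted p under 0.05, both higher with anti-VEGFA, where 15.0% passed; the other 3 tests gave 0. Median differences of the 10 genes were -0.05 and 0.17 from OE-MMP28 for anti-IL-8 and anti-VEGFA, and 0.18 between anti-VEGFA and anti-IL-8.

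Other genes of the axis were counted from lists. Of 13 further ligands and receptors of the interleukin-6 family, 8 could be tested. Against control, OE-MMP28 had 0 higher and 0 lower by edgeR's test and, at an unadjusted p under 0.05, 0 higher and 2 lower, CLCF1 (-0.38 on the log2 scale) and IL11 (-1.50). IL11 had only 1 to 27 counts in a library. With anti-IL-8 the list had 1 higher, EBI3 (0.77, edgeR adjusted p = 0.00804), and 1 lower, OSMR, the ligand-specific chain for oncostatin M (-0.50, adjusted p = 0.0339). With anti-VEGFA it had the same EBI3 call (0.60, 0.0381) and 1 lower, OSMR (-0.53, 0.0397). EBI3 differed between OE-MMP28 and control by 0.28 (SE 0.18) without passing.

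Of 13 further genes of the interleukin-10 family, 3 could be tested. IL24 fell in OE-MMP28 to a mean of 198 CPM from 287 in control, or -0.54 (edgeR adjusted p = 0.0176), and with anti-IL-8 by -0.52 (adjusted p = 0.00868). With anti-VEGFA its change was -0.35 (adjusted p = 0.0754). IL20RB, a receptor chain of interleukin-24, rose with anti-VEGFA by 1.19 (adjusted p = 0.0168), from 1.49 to 3.40 CPM. It had 23 to 67 counts in a library. Neither family list had a call against OE-MMP28 or between the antibodies.

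Downstream of the receptors, JAK2, a kinase bound to gp130, was lower than control in all 3 groups. Of 17 kinases, STATs and inhibitors of the JAK-STAT pathway, OE-MMP28 had 1 lower and 0 higher than control, JAK2 at -0.60 (edgeR adjusted p = 0.0484). With anti-IL-8 the list had 4 lower and 2 higher than control, where 10.9% of all genes were lower and 9.77% higher. Among them were JAK2 (-0.97), the phosphatase PTPN11 (-0.67) and SOCS5 (-0.63), each with an edgeR adjusted p of at most 0.00921. PIAS3, a gene for a STAT inhibitor, was higher (0.52, adjusted p = 0.0130). Outside the naming rule, the other calls were PIAS1 (-0.37) lower and CISH (0.54) higher, named after their values were seen. With anti-VEGFA JAK2 (-0.60, adjusted p = 0.0252) was lower and 0 were higher.

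Of 18 genes known as STAT3 targets, 0 passed the edgeR adjusted threshold in OE-MMP28 against control, with 1 higher and 2 lower at an unadjusted p under 0.05 and a median of -0.04. With anti-IL-8, 2 were higher and 2 lower than control, where 20.7% of all genes passed. They were the kinase PIM1 (0.57, adjusted p = 0.00871) and the survival gene BCL2L1 (0.47, 0.0334), against HIF1A (-0.83, 0.00413) and the protease inhibitor TIMP1 (-0.62, 0.0424). With anti-VEGFA 1 was higher, ZFP36 (0.62, 0.0306), which destabilizes cytokine mRNAs, and 0 were lower. Neither list had a call against OE-MMP28 or between the antibodies.

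**Figure D2:**
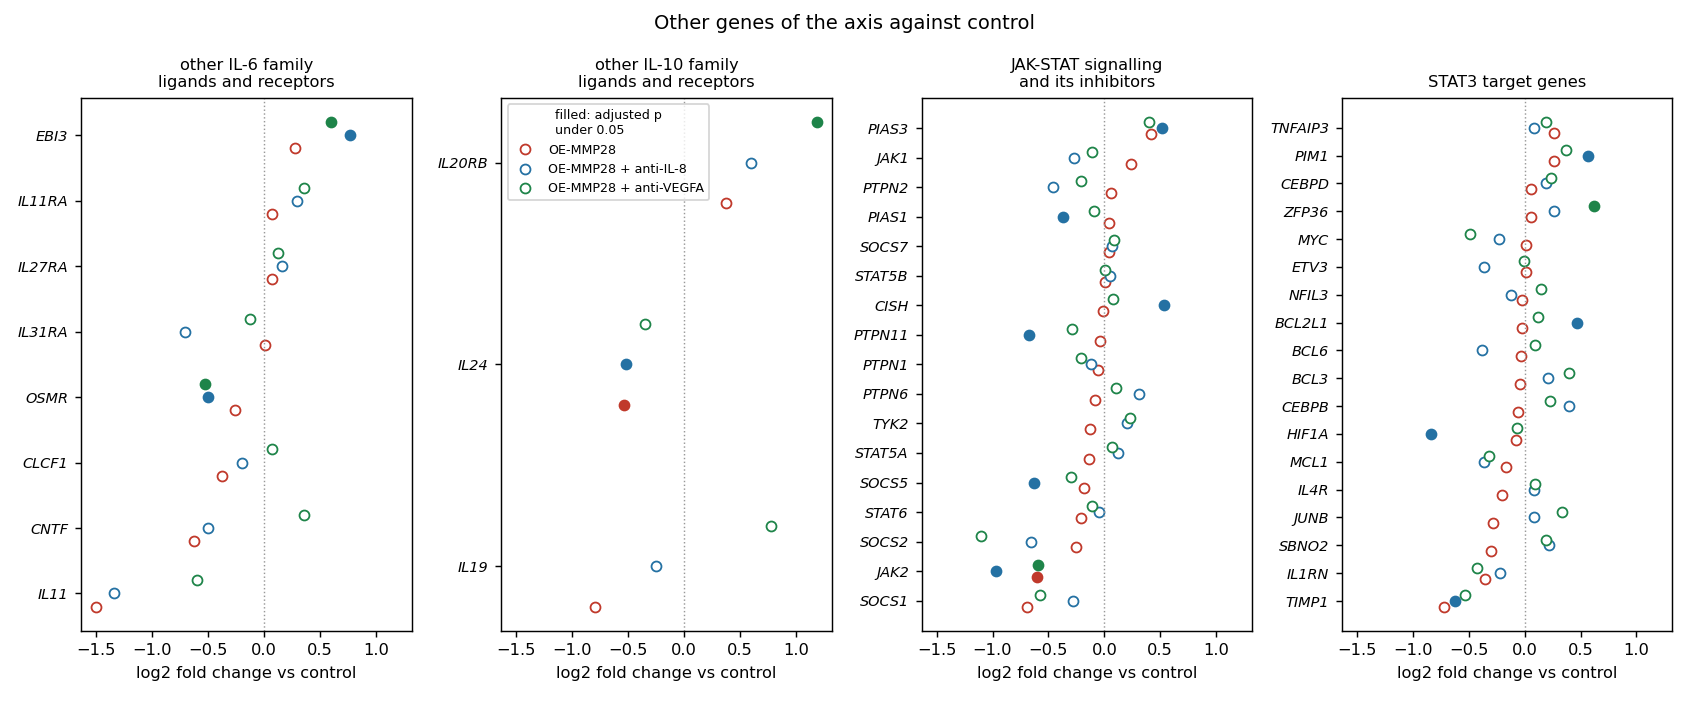
Log2 fold changes against control of the other genes of the axis that could be tested, in 4 lists (panels; genes are sorted by their OE-MMP28 value), for OE-MMP28 (red), anti-IL-8 (blue) and anti-VEGFA (green); filled points have an edgeR adjusted p under 0.05. JAK2 is filled in all 3 comparisons, and IL24 is the only other gene filled for OE-MMP28.

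Interferon-stimulated genes moved in the same comparisons as LIF. All 12 of that list fell against control in OE-MMP28, anti-IL-8 and anti-VEGFA, with medians of -3.81, -4.04 and -3.32 on the log2 scale, and their summed level was 2470 to 3559 CPM in control against 197 to 393 in the other 9 libraries. RSAD2, an antiviral enzyme, changed by -5.25 in OE-MMP28 (edgeR adjusted p = 5.48e-10). Macrophage markers had 1 call in OE-MMP28, CD14 at 0.80 (adjusted p = 0.0272), 3 higher (CD14 1.07, SPI1 0.68 and TYROBP 0.55) and 1 lower (PTPRC -0.73) with anti-IL-8, and CD14 alone (0.88) in the anti-VEGFA group. The epithelial list, of which 2 genes could be tested, had 1, MUC1 at -1.01 (adjusted p = 0.0341) in OE-MMP28. The part of interferon signalling, of TAM state and of stray AsPC-1 RNA in the LIF values was not tested. LIF stood at 12.1 to 64.4 CPM. The summed epithelial markers reached at most 5.09 CPM in a library, and MUC1 alone had a mean of 3.62 CPM in control. How much LIF the AsPC-1 cells make was not measured in these libraries, so these sums set no limit on their RNA in the LIF values.

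Of 13073 protein-coding genes tested, the 5 whose log2 CPM followed LIF most closely over the 12 libraries were ADGRG1 (Pearson r = 0.970), SLA (0.948), STC1 (0.939), HIST2H2BE (0.937) and WISP1 (0.934). These libraries share their groups and depth, so the values are a description. ADGRG1, an adhesion receptor, had a mean of 17.0 CPM in control and 8.53, 8.88 and 10.9 in OE-MMP28, anti-IL-8 and anti-VEGFA. STC1, a secreted glycoprotein, had 74.3 CPM in control and 30.7, 21.2 and 40.6 in the same order, and WISP1, a secreted matricellular protein, had 16.4 and then 3.30, 2.03 and 4.28. All 5 had their highest mean in control and their second highest with anti-VEGFA, as LIF did, which follows largely from their choice by likeness to LIF.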

How the data were processed

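Counts and FPKM were deposited per gene for 12 libraries. Per the labels, the authors made libraries with NEBNext Ultra kits. The submitters' processing notes name HISAT2 2.0.5 and featureCounts 1.5.0-p3; the strand setting of counting and the genome build were not given in the sources used here, but gene IDs and coordinates matched GENCODE 29 on GRCh38 for 58724 of 58735 genes. The deposited FPKM values, made by the authors, are counts scaled by gene length and a library size. That size is not the plain total of the deposited counts, and how it was set was not traced here. Columns of the authors' own comparisons (normalized means, log2 fold changes and p-values) were not used.

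Groups came from sample titles. Counts were fitted in R 4.3.3 with edgeR 4.0.16: filterByExpr with 4 groups (16046 genes), TMM, 1 coefficient per group over all 12 libraries, quasi-likelihood tests and Benjamini-Hochberg adjustment over all genes within a comparison, at 0.05. The common dispersion was 0.0231. CPM are TMM-scaled. The test was checked on simulated counts. Exon sharing was taken from GENCODE 29, on any strand. Intervals are 95% intervals of the fit; for a count of 0, 3 counts was the limit, for counting error only.

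The 10 genes and all lists (other interleukin-6 and interleukin-10 family genes, JAK-STAT signalling, STAT3 targets, interferon-stimulated genes, macrophage and epithelial markers) were chosen with earlier results of these data known. Some genes of these lists are not reported here. From each list, genes past the adjusted threshold were named, at most 4 of the smallest p per comparison, and the 5 genes most like the gene of smallest p. Alternatives were DESeq2 1.42.0, limma 3.58.1 (voom and log2 FPKM with pseudocounts 1 and 0.1), scaling by library totals alone, dropping the filter on low counts, a floor of 10 counts per library, fits of 2 groups, an unadjusted threshold, the replicate number as a block and each library left out; a mitochondrial covariate and removal of mitochondrial genes were added after the data were seen. Tables were made in Python 3.11.15 with pandas 2.3.3, figures with matplotlib 3.10.9.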

Additional observations from a re-analysis of the deposited data

How the results depend on the processing

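The OE-MMP28 call on LIF and the anti-IL-8 call on LIF held under every alternative run and without each library. Counts of the 10 genes called moved as follows. In anti-IL-8 against control, DESeq2 and the mitochondrial covariate each added OSM, where 3750 and 3879 of 16046 genes passed. A floor of 10 counts in every library added IL10 there, where 3386 of 13312 genes passed. So did limma on log2(FPKM + 1), where 2951 passed. Without a filter on low counts there were 2 in OE-MMP28 against control (LIF and IL10RA), where 707 of 34435 genes passed. There was 1 in anti-VEGFA against OE-MMP28 (400 genes passed) and 1 between the antibodies (277), both LIF. That fit gave LIF adjusted p-values far below those of the main fit. At an unadjusted p of 0.05 there were 2 in OE-MMP28 (14.5% of all genes passed) and 4 in anti-IL-8 against control (35.9%). There was 1 in anti-IL-8 against OE-MMP28 (29.3%), and 2 each in anti-VEGFA against OE-MMP28 (18.8%) and between the antibodies (15.0%). DESeq2 gave 1 in anti-IL-8 against OE-MMP28 (2122 of 16046 genes passed) and 1 in anti-VEGFA against control (2104). In the latter, limma on log2(FPKM + 1), log2(FPKM + 0.1) and the mitochondrial covariate each gave 1, where 1614, 1281 and 1652 passed. A fit of 2 groups gave 5 in anti-IL-8 against control, where 6039 of 15161 genes passed. Leaving out a library gave 0 to 1 in anti-IL-8 against OE-MMP28, where 0 to 4125 genes passed. In anti-VEGFA against OE-MMP28 it gave 0 to 1, where 8 to 1402 passed. Against control it gave 1 to 3 in anti-IL-8 (1312 to 4309 genes) and 0 to 2 in anti-VEGFA (662 to 2582). The causes were not tested.

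The results that changed sign were all uncalled in the alternative. For OE-MMP28 against control these were IL6 with library totals (-0.031), and IL6R (0.0045) and STAT3 (0.10) with the mitochondrial covariate. STAT3 in anti-IL-8 was -0.020 with library totals and -0.025 with the covariate against OE-MMP28; against control it was -0.074 with library totals, -0.0054 without a filter and -0.011 with at least 10 counts. IL6R in anti-VEGFA against OE-MMP28 was -0.021 with voom, -0.020 and -0.023 on FPKM, and -0.00011 with the replicate block. With the covariate, anti-VEGFA against control gave 0.0057 for IL10RA, 0.052 for IL6R, 0.15 for OSM and 0.085 for STAT3, and STAT3 between the antibodies was 0.015. Leaving out a library, changes that crossed 0 ranged, for OE-MMP28 against control, from -0.079 to 0.075 (IL6), -0.14 to 0.042 (IL6ST) and -0.11 to 0.081 (STAT3). For anti-IL-8 against OE-MMP28 they ranged from -0.13 to 0.040 (IL6), -0.15 to 0.066 (IL6R), -0.28 to 0.13 (LIF), -0.060 to 0.11 (STAT3) and -0.11 to 0.17 (SOCS3), and STAT3 against control from -0.072 to 0.071. For anti-VEGFA they ranged from -0.22 to 0.27 (IL6R) and -0.19 to 0.085 (STAT3) against OE-MMP28, and from -0.35 to 0.0063 (IL10RA), -0.39 to 0.10 (IL6R), -0.62 to 0.094 (OSM) and -0.20 to 0.073 (STAT3) against control. Between the antibodies they ranged from -0.032 to 0.29 (IL10RA), -0.033 to 0.37 (IL10RB), -0.19 to 0.27 (IL6R) and -0.21 to 0.032 (STAT3).

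Over all genes, calls against OE-MMP28 depended on the tool, the fit and the libraries: anti-IL-8 had 0 with edgeR and voom, 2122 with DESeq2, 1739 with the covariate, 1438 without a filter, 795 with the replicate block, 2 on log2(FPKM + 0.1), 1166 when anti-VEGFA replicate 2 was dropped and 4125 when OE-MMP28 replicate 3 was, and anti-VEGFA 55 with edgeR, 1402 without OE-MMP28 replicate 3, 429 with DESeq2, 310 with the covariate, 400 without a filter and 1 in a fit of 2 groups. Libraries that share a replicate number did not deviate together: over 18 pairs r ran from -0.16 to 0.24, with 4 above 0.1. With the replicate number as a block, the counts of the 10 genes called were 1, 0, 0, 2, 2 and 0 in the 6 comparisons, as without it. Depth limits OSM (7 counts in its lowest library), IL10RB (26) and IL10 (30), and outside the 10 genes IL11 (1) and IL20RB (23).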
